A study of Marchantia polymorpha with 6 samples.

Results

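In the liverwort Marchantia polymorpha, 5 DNA methyltransferase genes were described from their gene models and their genomic surroundings. They were MpMET (Mp6g18180), MpCMTa (Mp6g08650), MpCMTb (Mp6g21040), MpDRMa (Mp1g00340) and MpDNMT3b (Mp5g09290), chosen by gene identifier, and they made up 5 of the 19441 annotated genes and 5 of the 18288 genes with a coding sequence. The series set out to compare gene and transposable element expression after loss of MpMET. Its RNA-seq libraries came from 14-day thalli, the flat haploid plant body, with 3 libraries labelled Mpmet-3 and 3 labelled Tak-1 wild type, Tak-1 being a male laboratory line. All plants grew on agar medium under continuous white light. The labels give neither the lesion nor the parental line of Mpmet-3. Both files used were genome annotations without a measurement from any library. Expression was therefore not analysed here, the labelled tissue and genotype could not be checked against marker genes, and no value given measures an effect of the mutation. Depth per library is unknown.

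Plants methylate cytosine in CG, CHG and CHH contexts, where H is any base but G, and methylation in many plants keeps transposable elements silent. Enzymes of the MET type copy CG methylation after replication. Chromomethylases, the CMT type, act mainly at CHG and CHH sites in chromatin with methylated histone H3 lysine 9, as shown in Arabidopsis. DRM enzymes methylate new sites guided by small RNAs in Arabidopsis, and their catalytic motifs stand in a rearranged order. DNMT3 enzymes, known as de novo methyltransferases in mammals, are absent from flowering plants and present in mosses and liverworts.

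The gene names came from the annotation of the female assembly MpTak2 v7.1, matched by locus number. For all 5 genes the gene length there was within 5% of that in the Tak-1 annotation, and for 4 of them it was identical. No protein or genome sequence was used, so the enzyme types rest on these names. Positions refer to MpTak1 v5.1 revision 2 and count from 1. Shares of coding genes are given beside the 5 genes as a description of a single annotated genome, with no replicates and no test.

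The 5 genes were long, and 4 of them were rich in exons. The median coding length was 2784 bp, against 954 bp over all coding genes, and the shortest, that of MpDNMT3b, was longer than in 84.6% of coding genes. The median number of merged exons, which are exons joined over all transcripts, was 16, against 3 over all coding genes. MpDNMT3b was the exception, with 3 exons in a span of 3428 bp, longer than 56.3% of coding genes. The typical intron was not long: the median intron of the 5 genes was between 179.5 and 295 bp, and the median of these values was 222 bp, against 250 bp over the coding genes that have introns. MpCMTa, with the highest of these medians, exceeded 63.9% of them.

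**Figure D1:**
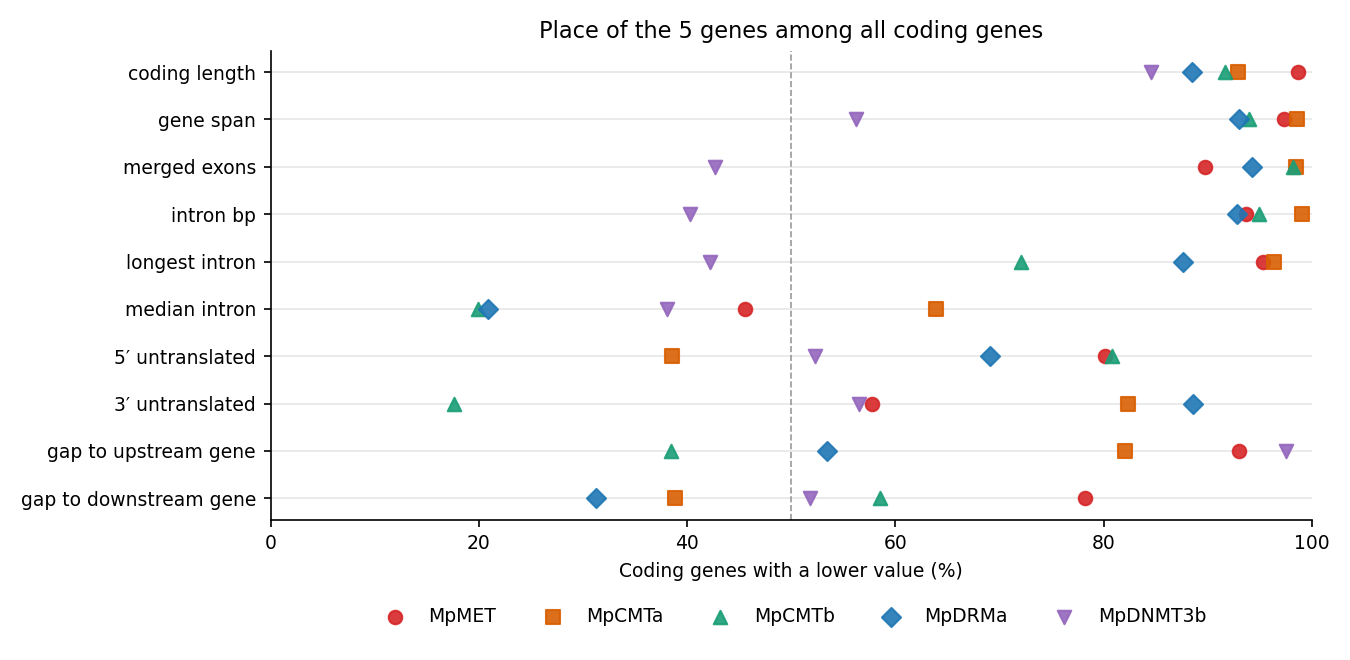
Share of the 18288 coding genes (18252 and 18246 for the upstream and downstream gaps, 14090 for the median intron) with a lower value than each of the 5 genes, in percent, for 10 measures of gene structure and spacing; each symbol is a gene and the dashed line marks 50%. In coding length all 5 genes lie at 84.6% or above, while in median intron length none lies above 63.9%.

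MpMET, the CG methyltransferase, had the longest coding sequence of the group. The gene occupied 20269397 to 20281226 of chromosome 6, minus strand. Its coding length of 5178 bp was greater than in 98.7% of coding genes. Most of it lay in 2 adjacent exons near the 5′ end, exon 2 with 1347 bp and exon 3 with 2090 bp, separated by an intron of 108 bp. The other coding parts were between 106 and 279 bp long. The first intron, between the exon that carries the start of the coding sequence and exon 2, was the longest at 1897 bp, and the intron between exons 2 and 3 was among the shortest.

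The 3 transcripts of MpMET differed only in untranslated sequence. Transcripts 1 and 2 began at the same base with 823 bp of 5′ untranslated sequence, while transcript 3 began 361 bp further in and had 462 bp. At the other end, transcript 1 ran on from the coding sequence into 528 bp of 3′ untranslated sequence with no intron. In transcripts 2 and 3 the exon stopped 11 bp after the coding sequence, and a separate last exon of 455 or 204 bp followed after an intron of 1212 or 1302 bp. Last exons that do not overlap between transcripts were annotated in MpMET alone of the 5 genes, and in 2.15% of all coding genes.

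MpCMTa, a chromomethylase, spanned 14669 bp of chromosome 6 (9477975 to 9492643, plus strand), and 70.0% of that span was intron. Its 10269 bp of intron exceeded that of 99.1% of coding genes. The 2 transcripts shared 21 of 23 exons and had separate first exons, which was so in 3.01% of coding genes and in no other gene of the group. Transcript 2 began 555 bp upstream of transcript 1. In transcript 1 the coding sequence started in the first exon, with 82 bp there, and reached 984 codons. In transcript 2 it started in the second exon, 2280 bp further along the chromosome, after 368 bp of 5′ untranslated sequence that held an intron, and reached 940 codons. The models thus differed by 44 codons at the amino end and ended at the same base.

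MpCMTb, the other chromomethylase, was more compact, with 23 exons in 9142 bp of chromosome 6 (23282879 to 23292020, plus strand). Its first exon of 813 bp was wholly untranslated, and the coding sequence started 27 bp into the second exon, giving 840 bp of 5′ untranslated sequence. Transcript 1 held 928 codons and transcript 2 held 811. The models differed by an exon of 44 bp (23291156 to 23291199) that transcript 2 left out. This length is not a multiple of 3, and the coding sequence of transcript 2 ended 27 bp into the next exon, 117 codons short of transcript 1. From that end 147 bp of spliced transcript remained before the last exon junction. Stops more than about 50 bases before a last junction are a feature that nonsense-mediated decay, a surveillance pathway for mRNA, is known to recognise. Whether transcript 2 is subject to it was not tested.

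**Figure D2:**
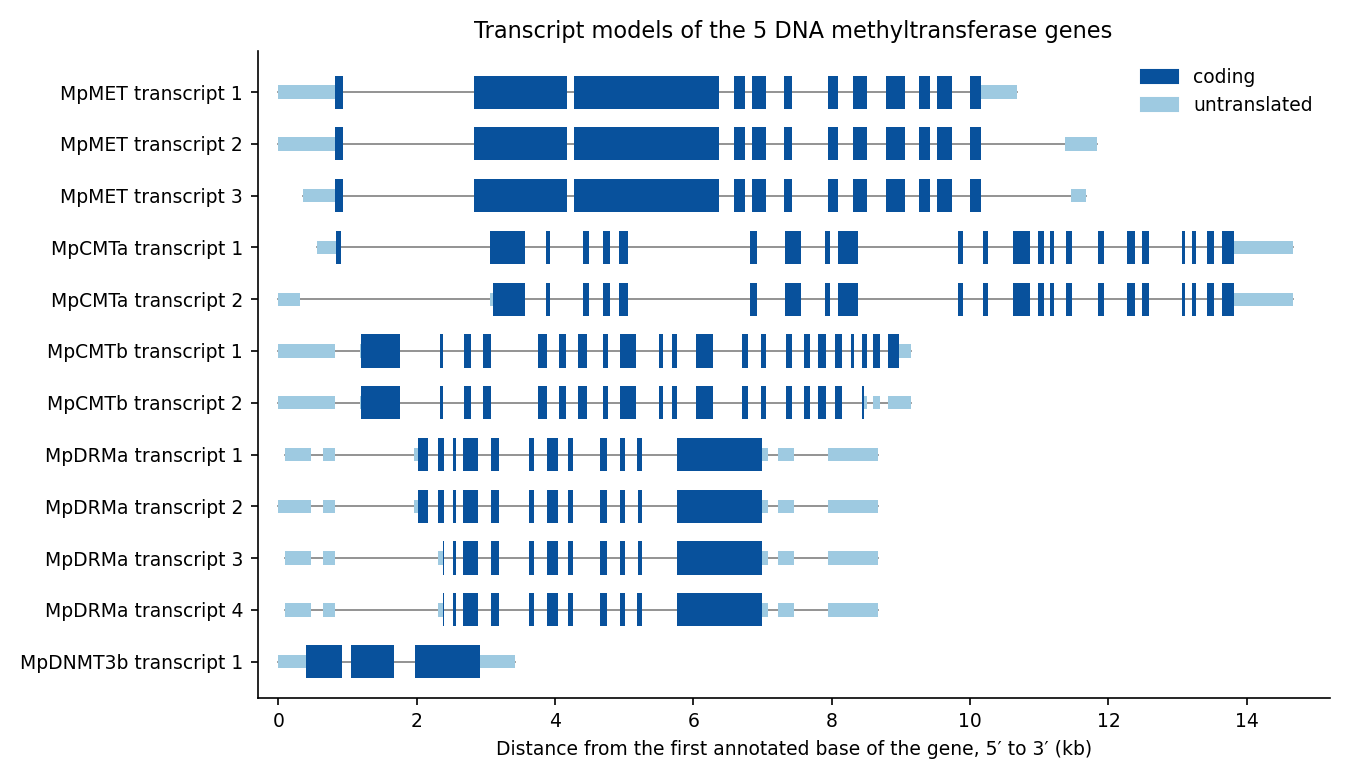
Transcript models of the 5 genes drawn to scale from 5′ to 3′, with distance from the first annotated base of each gene in kb; dark boxes are coding, light boxes untranslated, lines introns. MpMET varies at its ends outside the coding sequence, MpCMTa in its first exon, MpCMTb by an exon of 44 bp near the 3′ end, and MpDRMa by an exon of 202 bp near the 5′ end.

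MpDRMa, the gene of the domains-rearranged type, had the most transcripts. It occupied 466858 to 475520 of chromosome 1, minus strand. Its 4 transcripts each had a different coding model, and 1.00% of coding genes had at least 4. They formed the combinations of 2 choices. The first was an exon of 202 bp (473359 to 473560), present in transcripts 1 and 2 and left out of transcripts 3 and 4. It carries 144 bp of coding sequence and the coding start. Without it the coding sequence started 366 bp further along, inside the next exon, and was 73 codons shorter between transcripts that were alike in the second choice.

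The second choice was between splice acceptors 3 bp apart. The exon before the last coding exon was 63 bp long in transcripts 1 and 4 and 60 bp in transcripts 2 and 3, which removes a single codon and keeps the frame. Acceptors 3 bp apart were annotated in 0.820% of coding genes, and in 4.94% of the 3038 with at least 2 transcripts. The coding lengths were 798, 797, 724 and 725 codons for transcripts 1 to 4. Transcript 2 also began 93 bp upstream of the other three. All 4 transcripts had 2 introns in the 5′ untranslated sequence. They also had 2 in the 3′ untranslated sequence, with 316 bp between the end of the coding sequence and the last junction. The last coding part held 1227 of the 2394 bp of transcript 1, and the other 11 parts were 47 to 213 bp long.

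MpDNMT3b, the DNMT3-type gene, had the simplest model. It occupied 10142871 to 10146298 of chromosome 5, plus strand, with a single transcript of 687 codons in 3 exons of 919, 616 and 1449 bp. The introns were 135 and 309 bp long. The untranslated sequences, 407 bp at the 5′ end and 516 bp at the 3′ end, lay in the outer exons with no intron in them.

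Across the group, 4 of the 5 genes had at least 2 transcripts, against 16.6% of coding genes, and 3 had at least 2 coding models, against 10.1%. An intron in the 5′ untranslated sequence of any transcript occurred in 3 of 5, against 23.4%. An intron in the 3′ untranslated sequence of any transcript occurred in 3 of 5, against 12.3%. When the first transcript alone is read, MpDRMa is the only one of them with an intron in the 3′ untranslated sequence. The share of coding genes for that reading is not given here. A cassette exon, which another transcript of the gene splices over, occurred in MpCMTb and MpDRMa, against 2.98% of coding genes. A coding end more than 50 bp before the last junction occurred in the same 2 genes, against 9.58%. For MpCMTb several of these features are a single difference, the exon of 44 bp that transcript 2 leaves out. Its second coding model, cassette exon, introns in the 3′ untranslated sequence and early coding end all come with that exon. They are therefore not separate observations. MpDNMT3b, with 3 exons, had none of these features. The other four are long and have many exons, and transcript number was not compared with genes of like length. Cassette exons, at least 2 coding models and first or last exons that do not overlap can occur only with at least 2 transcripts. Of the 3038 coding genes with these, 545 had a cassette exon and 1850 at least 2 coding models. First exons that do not overlap occurred in 551, and such last exons in 393. As a check of the models and not a trait of the group, the coding length was a whole number of codons in all 12 transcripts. The share among all coding transcripts was not counted.

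The chromomethylase genes shared their exon structure although they lay far apart on chromosome 6. Between MpCMTa and MpCMTb stood MpMET: 965 genes lay between MpCMTa and MpMET over 10776753 bp, and 285 genes between MpMET and MpCMTb over 3001652 bp. Transcript 1 of MpCMTa, with the longer coding sequence, has 23 coding parts. Its transcript 2 has 22, as MpCMTb transcript 1 has, so the parts of these 2 could be paired in order. When the 22 coding parts of MpCMTa transcript 2 were set beside the 22 of MpCMTb transcript 1 in order, 10 of 22 had the same length. The frame offset, the number of bases before the first whole codon of a part, was the same in 22 of 22. Part 1 opens the coding sequence, so its offset of 0 in both genes was fixed in advance. With whole codon totals in both models, every difference in part length was then a multiple of 3. That is the same observation and not a further one. These counts were not set beside those of other gene pairs.

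Parts 12 to 21 of the pair were nearly alike. Both began with 243 and 87 bp. Part 14 was 69 bp in MpCMTa and 72 bp in MpCMTb, and part 15 was 87 bp in MpCMTa and 84 bp in MpCMTb. Both then continued with 88, 116, 102, 44, 70 and 104 bp, and the sum over the 10 parts was 1010 bp in each gene. The larger differences lay nearer the 5′ end, with 236 bp in MpCMTa and 134 bp in MpCMTb for part 7, 282 and 231 bp for part 9, and 453 and 561 bp for part 1. The exon of 44 bp that MpCMTb transcript 2 leaves out is part 19. MpCMTa has a part of the same length there, and both of its transcripts keep it.

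The run of 6 equal parts was the longest that either gene shared with any of the other 18287 coding genes, where the next longest was 2. For MpMET and MpDRMa the longest run with any gene was also 2, and for MpDNMT3b, which has only 3 parts, it was 1. This comparison of part lengths was chosen after the lengths had been seen. Among the 5 genes, no other pair shared a run of more than 1 part.

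The introns between the coding parts of the pair were not alike. They summed to 7884 bp in MpCMTa and 4990 bp in MpCMTb, a ratio of 1.58, with medians of 295 and 178 bp. Of the 21 introns, 12 were longer in MpCMTa, 8 were longer in MpCMTb and the last was 111 bp in both. The difference in sum rested mostly on 2 introns of MpCMTa, of 1761 and 1459 bp, which were 181 and 325 bp in MpCMTb.

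**Figure D3:**
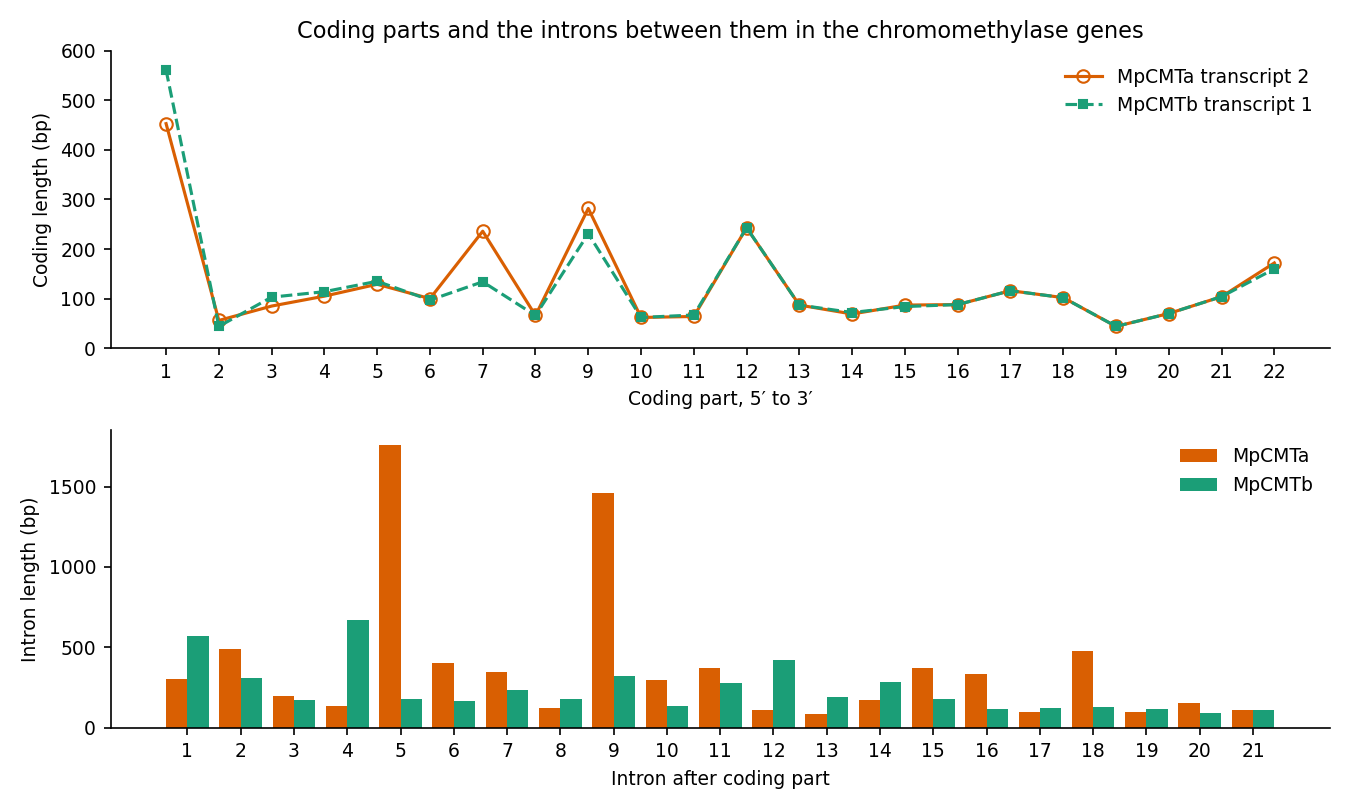
Upper panel, coding length in bp of the 22 coding parts of MpCMTa transcript 2 (circles) and MpCMTb transcript 1 (squares), 5′ to 3′; lower panel, length in bp of the intron after each part. The coding lengths coincide at 10 parts, while 12 of 21 introns are longer in MpCMTa and 8 are longer in MpCMTb.

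The spacing to other genes differed widely. Of the 10 nearest genes, 9 were coding, as were 18288 of all 19441 genes, so this sets the surroundings apart in nothing. The same 9 stood next to the same gene in MpTak2 v7.1. The other, Mp6g21045a, has no matching number there and could not be compared. How often neighbours are kept for other genes is not given here. The median distance from the 5 genes to the nearest gene was 2623 bp, against 1447.5 bp over all coding genes. MpMET had the fewest genes around it of the 5. A single gene lay within 20 kb of it, Mp6g18170, which converged on it from 9910 bp downstream, and 1.44% of coding genes had fewer. Upstream the nearest gene, Mp6g18190 on the same strand, was 23382 bp away. MpDNMT3b had a still longer upstream gap of 36963 bp to Mp5g09280, which is named MpNPF26 and faces away from it. That gap was larger than in 97.5% of coding genes, while downstream Mp5g09300 converged on it from 3382 bp. No gene within 20 kb upstream was annotated for these 2 genes of 5 and for 9.28% of coding genes. That share includes coding genes with no upstream gene at all.

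The other three had closer neighbours. MpDRMa had Mp1g00330 on the same strand 1379 bp downstream and Mp1g00350 facing away 4620 bp upstream. MpCMTb followed Mp6g21030 on the same strand at 2623 bp and was followed by Mp6g21045a, a gene of 72 bp without a coding sequence, at 4464 bp. MpCMTa converged with Mp6g08660, named MpGH38.2 after a glycoside hydrolase family, at 1952 bp. On its other side, 12969 bp upstream, lay Mp6g08630, of whose 852 bp of exon 846 bp (99.3%) was annotated as element. Within 20 kb stood 1 gene for MpMET, 2 for MpCMTa, 6 each for MpCMTb and MpDRMa, and 5 for MpDNMT3b, against a median of 4 over coding genes.

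The 5 genes differed in how much transposable element sequence lay near them and on which side. The element annotation gave 91 copies of 57 families and 11 superfamilies within 20 kb of the 5 genes. An element within 20 kb was found at 96.8% of coding genes, so its presence there sets none of the 5 apart. Elements covered between 14.5% (MpDRMa) and 40.6% (MpMET) of the 40 kb around each gene, with a median of 23.6%, against 12.1% over all coding genes. The median of the 5 exceeded 73.1% of coding genes. In gene order, the cover was 40.6% for MpMET, 29.1% for MpCMTa, 17.2% for MpCMTb, 14.5% for MpDRMa and 23.6% for MpDNMT3b.

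The more covered side was upstream in some of the genes and downstream in others. Upstream and downstream cover were 81.3% and 0% for MpMET, 35.6% and 22.6% for MpCMTa, and 40.1% and 7.03% for MpDNMT3b. MpCMTb, with 2.19% upstream and 32.3% downstream, and MpDRMa, with 1.00% and 28.0%, had the opposite order. Upstream cover exceeded downstream cover in 3 of 5 genes and in 46.7% of coding genes. The difference between the sides was 81.3 percentage points at MpMET, larger in size than in 99.3% of coding genes. It was 33.1 points at MpDNMT3b (79.9%), 30.1 at MpCMTb (76.8%) and 27.0 at MpDRMa (73.5%). At MpCMTa it was 13.01 points, larger than in 51.2% and near the median of 12.4 points. No element within 20 kb downstream was annotated at MpMET alone of the 5, and at 16.5% of coding genes.

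**Figure D4:**
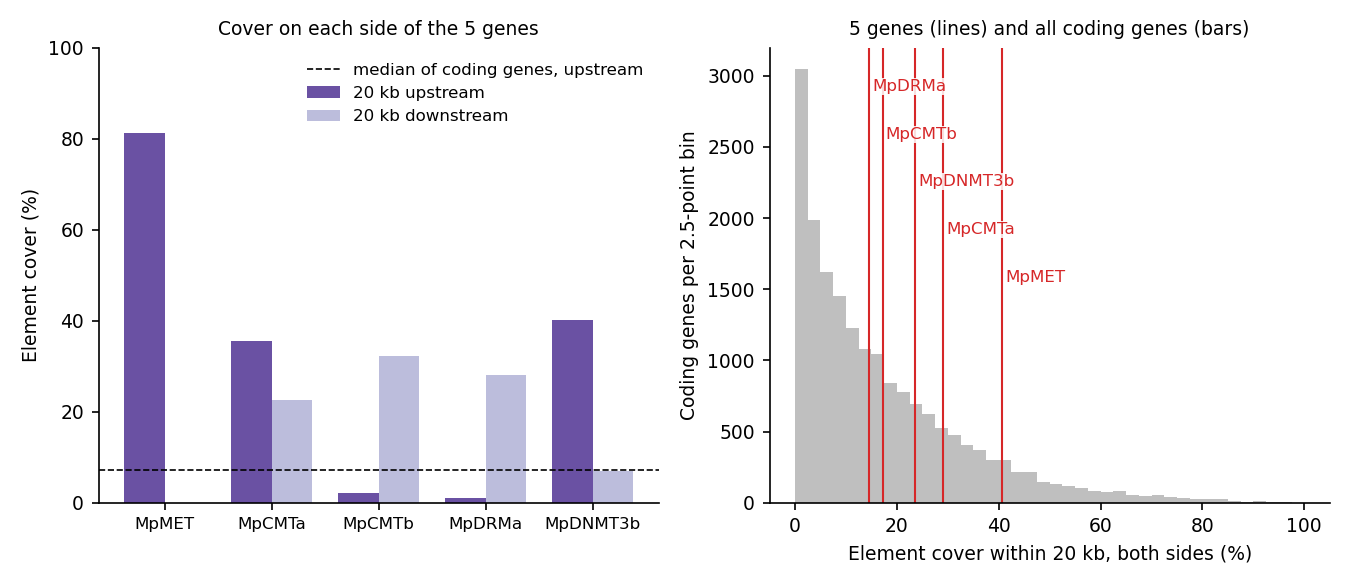
Left, element cover in percent of the 20 kb upstream (dark) and downstream (light) of each of the 5 genes, with the upstream median of coding genes (7.22%) dashed; right, number of coding genes per bin of 2.5 percentage points of element cover over both sides, with the 5 genes as lines. MpMET has 81.3% upstream and 0% downstream, and the 5 lines lie between 14.5% and 40.6%.

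In the 1 kb next to the start, element sequence was found at 4 of 5, against 14.4% of coding genes. MpMET had 597 bp there, MpCMTb 437 bp, MpDNMT3b 135 bp and MpDRMa 43 bp, while the nearest upstream element of MpCMTa was 2335 bp away. Within 500 bp of the start the count was 2, MpMET and MpCMTb, against 9.13% of coding genes. Over the 1 kb before the start of the coding sequence, a window that lies partly inside the gene, it was 1 of 5, against 10.8%. An element touched an exon in 1 of 5, against 11.4% of coding genes, with 37 bp at the 5′ end of MpMET. An element lay in an intron in 1 of 5, against 9.71%.

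That gene was MpCMTa, which held 376 bp of element in its introns. Both copies belonged to the LTR family TE_00001097_LTR, which has 1491 copies in the annotation and lies within 20 kb of 14.9% of coding genes. The first, 212 bp (9482024 to 9482235), filled part of intron 3 of 487 bp and lay on the strand of the gene. The second, 164 bp (9486877 to 9487040), lay in intron 10 of 1459 bp on the opposite strand. Intron 10 is the one after coding part 9 of transcript 2, among the longest of the gene. Intron 6, with 1761 bp, held no element.

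Retrotransposons with long terminal repeats (LTR), which move through an RNA copy, filled the upstream side of MpMET. Gypsy elements covered 9909 bp, 60.9% of its element sequence within 20 kb, and LTR elements of no superfamily 4225 bp. Among 21 copies, 14 lay on the strand opposite to MpMET. From 2647 bp upstream a block of 11 copies, all on the plus strand, ran over 7382 bp (20283874 to 20291255) with 98.1% of it covered. The block began and ended with the Copia repeat family TE_00000598_LTR, in copies of 170 and 146 bp. Inside these lay the Gypsy repeat family TE_00000520_LTR near both ends, and 5 copies labelled as inner parts of LTR elements between. The family with most sequence was TE_00001156_LTR, with a single copy of 3322 bp, ahead of TE_00000842_INT with 2895 bp and TE_00001059_INT with 2 copies and 2074 bp. Nearer to the gene than the block of 11 copies, no LTR copy was annotated. There 2 copies of TE_00001217, a DNA transposon family of the Mutator group (DTM), lay 207 and 678 bp upstream. They were 230 and 443 bp long.

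DNA transposons, which move as DNA, made up much of the element sequence upstream of MpCMTa. Elements of the Mutator group (DTM) covered 2847 bp and hAT elements (DTA) 1456 bp there, among them a copy of 1794 bp of TE_00001300 and 2 copies of TE_00000174. Short inverted-repeat elements (MITEs) of the CACTA type (MITE/DTC) added 675 bp in 5 copies. Downstream lay 2 Copia copies, the longer of them TE_00001260_INT with 4382 bp, which began 732 bp after the end of the gene on its strand. It ran into Mp6g08660 on the opposite strand and covered 1753 of that gene's 5869 bp of exon (29.9%).

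MpCMTb had repeats of unknown class and Copia elements on its downstream side. The family TE_00000303, of unknown class, had 5 copies there, of 78 in the annotation. Copies of it cover part of Mp6g21050, named MpCupin98, of whose exon bp 85.4% was annotated as element. Further out, from 23302297 to 23305381, 3 copies of TE_00000926_LTR stood around an inner part of TE_00000654_INT of 2191 bp. The nearest downstream element was a structure-based MITE of 193 bp, TE_00000734, a family of 4 copies that lies within 20 kb of 10 coding genes (0.0547%). The nearest upstream was a CACTA copy of TE_00000383, 360 bp from the start.

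MpDRMa had the least element sequence, and nearly all of it lay far downstream. Upstream there were 2 Mutator-type MITEs of 88 and 113 bp, the nearer of them TE_00001151 at 957 bp. Downstream no element was annotated for 10728 bp. Beyond that 14 copies covered 5605 bp, with Gypsy elements holding 2837 bp and 2 Copia copies of TE_00001279_INT holding 1653 bp.

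Upstream of MpDNMT3b the largest element was a DNA transposon of the Tc1/Mariner type (DTT), TE_00000786. It was a structure-based copy of 3894 bp (10131342 to 10135235) that ended 7635 bp from the start of the gene, and a Copia copy of 358 bp lay inside it. This copy and an adjoining one of 90 bp made up 32.3% of all sequence annotated to the family, which has 42 copies. Nearer to the gene lay a Gypsy copy of TE_00001047_INT, with 526 bp, and a CACTA copy of TE_00000651, 820 bp from the start. Downstream the nearest was a Copia copy of TE_00000615_INT at 2391 bp. Of the 91 copies around the 5 genes, 2 were found by their structure, the long copy of TE_00000786 and the MITE at MpCMTb. The share of such copies over all annotated elements is not given here, so this count is not called low or high.

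**Figure D5:**
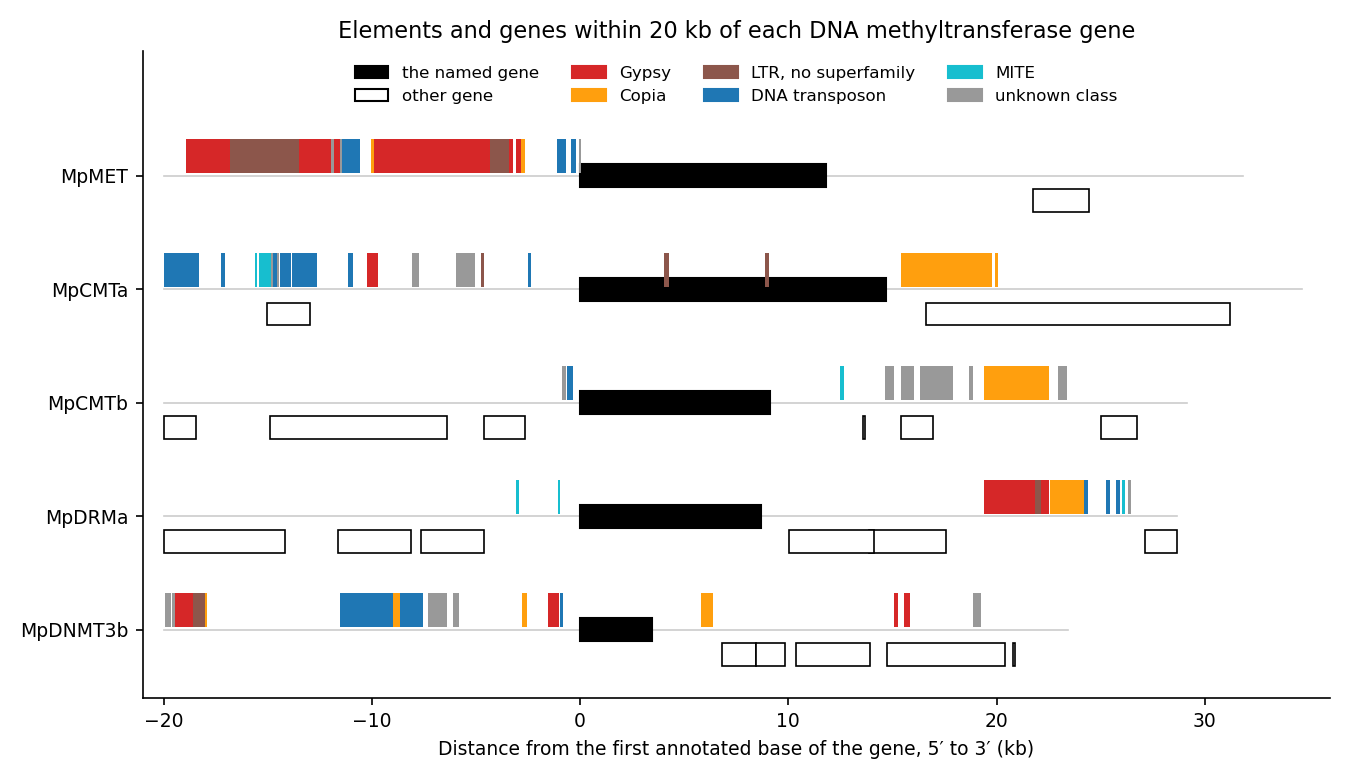
Elements (coloured by class) and other genes (open boxes) within 20 kb of each of the 5 genes (black), 5′ to 3′, with distance from the first annotated base of the gene in kb. LTR elements make up most of the element sequence upstream of MpMET, and no element lies downstream of it. MpCMTb and MpDRMa have most of their elements downstream.

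Some element families lay near more than 1 of the genes. Of the 57 families, 52 were found around 1 gene, 5 around 2 genes and 0 around 3 or more. How many families other sets of genes share was not measured. MpMET and MpDRMa had 4 in common. They were TE_00000520_LTR, which lies within 20 kb of 22.1% of coding genes, TE_00000497_INT (2.49%), TE_00000854_INT (1.76%) and the hAT family TE_00000788 (1.15%). MpCMTa and MpDNMT3b had TE_00001047_INT in common (4.78%).

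Other genes of DNA methylation, matched to symbols in the same way, gave values for comparison. They were 8: MpDRMb, MpDNMT3a, the chromatin remodeller MpDDM1, MpSUVHa and MpSUVHb of the histone H3 lysine 9 methyltransferase type, and MpAGO4a, MpAGO4b and MpDCL3 of the small RNA pathway. MpROS1a and MpROS1x, of the DNA demethylase type, were left out because they could not be matched by number and length. Their coding length was between 1962 and 2832 bp, with a median of 2403 bp. An element in the upstream 1 kb was found in 1 of 8, MpSUVHb with 133 bp. At least 2 transcripts were annotated for 3 of 8, and an intron in the 5′ untranslated sequence for 3 of 8. Cover within 20 kb was between 0% (MpDRMb) and 49.8% (MpDDM1), with a median of 17.7%. At MpDDM1 it lay mainly downstream, with 78.8% of the downstream side.

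The relatives of 2 of the 5 genes differed from them in structure. MpDNMT3a had 15 exons in 8849 bp for 654 codons, 13 coding parts in all, where MpDNMT3b had 3 exons in 3428 bp for 687 codons. MpDRMb had 7 coding parts and 766 codons, and no element was annotated within 20 kb of it. MpDRMa had 12 coding parts and 798 codons. Neither pair shared a run of more than 1 equal coding part, where the chromomethylase pair shared a run of 6. With 3 coding parts in MpDNMT3b, a run of 6 was not possible in the DNMT3 pair.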

How the data were processed

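Per the labels' protocols, poly(A) RNA went into strand-specific libraries. Trim Galore and STAR appear, with no version, in the submitters' processing notes. The other values, deposited by the authors, are genome positions in bp in 2 annotation files, 1 of genes and 1 of elements named for EDTA, both for MpTak1 v5.1 revision 2. Neither file has a measurement from a library, so the 6 libraries entered no test. The 5 genes, the lists and the measures were chosen with earlier results of these data known. A gene was the span of its exons over all transcripts, and introns were the rest of that span. Coding and untranslated lengths of a gene came from the transcript with the longest coding sequence. Copies that overlap were joined before counting bp in the 20 kb on each side of a gene. Shares of coding genes count strictly lower values. Copies were called structure-based unless their identifier began with TE_homo. Genes named are the 5, their nearest genes and listed DNA methylation genes. Families were named from among the nearest, the 3 with most bp and the shared ones, and not all of these are named. The family TE_00000598_LTR at the ends of the block upstream of MpMET was named after the arrangement was seen. Families inside a gene, and other genes overlapped by an element, were also named after their values were seen. The functions were tested on simulated annotations, with 0 wrong answers in 4000 checks of cover, 500 of transcript structure, 2498 of nearest genes, 200 of shared runs and 200 of transcript differences. Python 3.11.15, numpy 2.4.6, scipy 1.17.1 and matplotlib 3.10.9 were used.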

Additional observations from a re-analysis of the deposited data

How the results depend on the processing

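The median element cover of the 5 genes was 25.5% with flanks of 10 kb, 25.3% with 50 kb, 22.0% with copies of at least 200 bp, 18.6% without elements of unknown class and 0% with structure-based copies alone. It exceeded 78.1%, 74.9%, 73.1%, 70.3% and 0% of coding genes in that order, and 73.5% of autosomal ones. The share of 0% for structure-based copies follows from the median of 0%, since no gene can have less cover. It does not place the 5 genes below others. For MpDRMa the cover was 1.00% with 10 kb flanks. The number of genes with an element upstream was 2 within 500 bp (9.13% of coding genes), 2 with copies of at least 200 bp (11.2%), 1 from the coding start (10.8%), 4 within 2 kb (24.3%) and 4 without unknown class (10.9%). An element in an exon was found in 0 genes with copies of at least 200 bp (8.97% of coding genes) and in 0 without unknown class (7.03%). An element in an intron was found in 1 gene with copies of at least 200 bp (7.57%), without unknown class (4.92%) and in the first transcript (9.69%). At least 2 coding models were found in 3 genes (10.1%), and at least 2 transcripts in 4 (16.6%). An intron in the 5′ untranslated sequence was found in 2 genes when the first transcript alone was used, against 19.8% of coding genes. The median intron was then 218 bp. The median distance to the nearest gene was 11309 bp on the same strand alone. No value over all coding genes was taken for that setting. The 11309 bp therefore cannot be set against the 1447.5 bp over all coding genes, which counts either strand. Of 40 values of single genes under these alternatives, 12 stayed within their interval or were identical and 28 moved. These intervals are 95% Wilson intervals over bp, which are not independent, so they are too narrow. No paired analysis was possible because no file holds a value of a library; for the same reason no replicate could be left out.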
